A study of Mus musculus with 9 samples.

Results

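Chromosome 5 was described here in 9 mouse mammary tumours by array comparative genomic hybridisation, in which tumour DNA and reference DNA compete for the same probes. Its members are all probes that the files place on chromosome 5, which were 57545 of 963261 distinct probes on the array and of 914119 on the autosomes. They ran from position 3247009 to position 152534921, a span of 149 Mb, with a median spacing of 1770 bp and a largest gap of 2485166 bp. The chromosome was chosen because its ratio to the reference was raised in these same arrays. Every ratio against the reference, counts of windows past a threshold included, is therefore a description that supports nothing further, and tests were kept for differences between groups of tumours.

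The tumours came from mice of mixed background with floxed Rb and floxed p53 alleles, and the study asked which copy number changes tumours lacking both genes share. Cre recombinase, which deletes the floxed parts, came from the MMTV promoter, active in mammary epithelium, in 7 tumours. Of these, 1 arose in a nulliparous mouse and 1 in a parous mouse, and 5 carry the label transplant. In the other 2 tumours, also labelled as transplants, Cre came from an adenovirus with the CMV promoter (Ad-Cre). The sample titles call all 9 primary tumours, and the labels do not say whether transplants shared a donor. Each tumour was hybridised once, in Cy5, against Cy3-labelled tail DNA pooled from tumour-free mice of the same mixed background. All groups therefore share 1 reference, there was no array of control DNA and no dye swap, and every number of arrays below is a number of tumours.

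Gain of a whole chromosome arises when sister chromatids are not shared equally at mitosis, while gains of part of a chromosome need breaks in the DNA. Loss of p53 is known to let cells with such changes survive, and loss of Rb weakens the control of entry into S phase. Mouse chromosome 5 carries Cdk6, a kinase that phosphorylates Rb, and the receptor tyrosine kinase genes Pdgfra, Kit, Kdr, Flt1, Flt3 and Fgfr3. It also carries Hgf, which encodes the ligand of the Met receptor, and Areg, Ereg, Btc and Epgn, which encode ligands of the EGF receptor family. Brca2, Chek2, Ung and Pole act in DNA repair, checkpoint control or replication. Spp1 encodes osteopontin, a secreted glycoprotein, Ptpn11 a tyrosine phosphatase, and Nsd2 a histone methyltransferase. Tbx3, Tbx5, Cux1 and Cdx2 encode transcription factors, and Trrap encodes part of complexes that act on chromatin. All genes named here are on chromosome 5 in the RefSeq table of GRCm38.p6, among 1269 protein-coding genes there. The files name no genome build, and 280 of the chromosome 5 probes lie beyond the last chromosome 5 gene of that table. Positions below are those printed in the files, and no gene was placed on them.

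The median reference signal per array was 1071 to 1150 intensity units, at 21.8 to 32.4 times the background beside the spots. For the tumour channel the median was 1071 to 1191 units, at 14.9 to 17.9 times that background. The noise of a single probe was 0.16 to 0.18 on the log2 scale, and 57464 of the chromosome 5 probes had a value in all 9 arrays. A run of 4 neighbouring probes on chromosome 11, the chromosome of the p53 gene, was chosen for being low and served as a check of the labels. It kept 30.4% to 58.6% of the signal of its flanks in 8 tumours. The library labelled MMTV-Cre transplant 2 kept 96.7%, a value that goes against its label. It is kept under its label here, and means are given with and without it.

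Chromosome 5 as a whole stood above the autosomal median in 9 of 9 tumours, and by very different amounts. The level, which is the median log2 ratio over its probes with each array centred on its autosomal median, was 0.31 in the nulliparous tumour and 0.06 in the parous tumour. It was 0.08, 0.15, 0.16 and 0.15 in MMTV-Cre transplants 1, 3, 4 and 5, and 0.40 for the library labelled MMTV-Cre transplant 2. In Ad-Cre transplants 1 and 2 it was 0.16 and 0.01. The nulliparous tumour and the library labelled MMTV-Cre transplant 2 were thus the highest, 4 tumours lay together between 0.15 and 0.16, and Ad-Cre transplant 2 lay next to 0. The mean was 0.16 ± 0.12 (SD, n = 9), and 0.14 ± 0.091 (SD, n = 8) without the library labelled MMTV-Cre transplant 2. With no repeat array of any tumour, the order of tumours this close has no error of its own. The order also depended on the centring: on the mode of each array the level of Ad-Cre transplant 1 was 0.01 and that of Ad-Cre transplant 2 was -0.02, so that 8 of 9 tumours were above 0. The parous tumour was then at 0.01 and MMTV-Cre transplant 1 at 0.03, so some of the 8 were only just above it.

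In linear terms the tumour signal of chromosome 5 was between 1.01 times the reference in Ad-Cre transplant 2 and 1.32 times in the library labelled MMTV-Cre transplant 2. The nulliparous tumour was at 1.24 times. Each value is an average over all cells of a tumour piece, so a gain in few cells and a smaller gain in many cells cannot be told apart. The median reference signal of chromosome 5 was 1.007 to 1.012 times that of all autosomes in every array. The median tumour signal was 1.02 to 1.28 times that of all autosomes. The share of chromosome 5 probes with a log2 ratio above 0 was 91.9% in the nulliparous tumour, 95.6% in the library labelled MMTV-Cre transplant 2, and between 52.4% and 81.3% in the other 7.

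**Figure D1:**
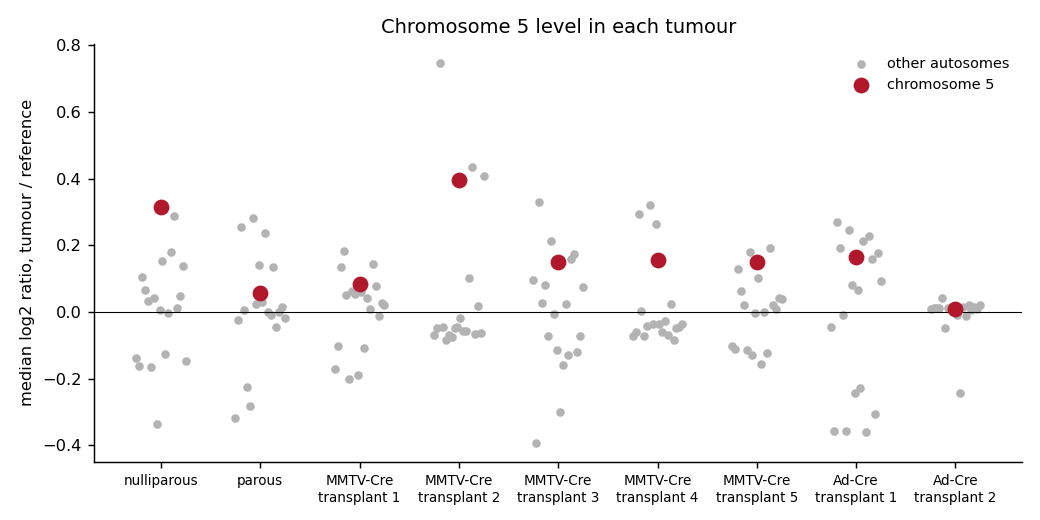
Median log2 ratio of tumour to reference for each of 19 autosomes in each of 9 tumours (1 array each), with chromosome 5 as the large red point and the other autosomes in grey. Chromosome 5 is above 0 in all 9 columns and ranks first in the nulliparous tumour (0.31), and in Ad-Cre transplant 2 it lies at 0.01 among the other autosomes.

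Among the 19 autosomes chromosome 5 ranked first in the nulliparous tumour. Its rank was 6 in the parous tumour and between 3 and 5 in the 5 libraries labelled MMTV-Cre transplant, and the Ad-Cre tumours had ranks of 7 and 11. With the highest chromosome 5 level of all, the library labelled MMTV-Cre transplant 2 had a rank of only 4, since 3 other autosomes were higher in it. Chromosomes 3 and 15 were the other chromosomes above 0 in 9 of 9 tumours that were compared. The level of chromosome 3 was 0.10 in the nulliparous tumour and 0.26 in the parous tumour, the reverse of the order on chromosome 5. Chromosome 15 was at 0.29 and 0.13 in the same tumours.

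Divided into windows of 100 kb with at least 3 probes, 940 of 1440 chromosome 5 windows were higher than the reference at an adjusted p under 0.05 (limma, 9 arrays), which is 65.3%, against 17.1% of 23354 autosomal windows. Lower windows numbered 3 on chromosome 5, or 0.208%, against 19.8% of all windows. The chromosome was chosen on this ratio, so the shares restate that choice and test nothing. A window was above 0 in all 9 tumours 483 times on chromosome 5 (33.5%), against 6.71% of all windows.

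Whole-chromosome and partial gains were then separated by segmentation, which cuts each profile into stretches of constant level. Segments at 0.25 or more, the value used as gained, covered 99.95% of the chromosome in the library labelled MMTV-Cre transplant 2 and 64.3% in the nulliparous tumour. They covered 0.152% in MMTV-Cre transplant 4, all of it 1 short segment, and 0% in the other 6. The mean share was 18.3% ± 37.3 (SD, n = 9), and 8.05% ± 22.7 (SD, n = 8) without the library labelled MMTV-Cre transplant 2. In the nulliparous tumour the share lay below that of a whole chromosome because its segments moved above and below 0.25. Its 10 Mb blocks ran from 0.18 to 0.40, and all 16 blocks were above 0.

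The arrays resembled each other in how the ratio rose and fell along the chromosome. The profiles over windows correlated between pairs of tumours with a Pearson r between 0.198 and 0.910 and a median of 0.719 over 36 pairs, where all pairs share the probes and the reference pool. The part of the probes and the pool in this likeness was not tested. The 8 pairs with the parous tumour had an r of 0.198 to 0.462. The block from 10 to 20 Mb was the lowest of the chromosome in 7 tumours, and the block from 110 to 120 Mb was the highest in 5. In Ad-Cre transplant 2, whose level was 0.01, the blocks spanned only 0.056, from -0.03 to 0.03. To separate each tumour from this common pattern, the median of the other 8 tumours at each probe, each taken relative to its own chromosome level, was subtracted. The removal lowered the noise of single probes to between 0.081 and 0.103. The subtracted pattern was not scaled to its size in each tumour, although the blocks spanned 0.056 in Ad-Cre transplant 2 and 0.263 in MMTV-Cre transplant 5. In a tumour with a weak pattern the removal can therefore leave the inverse of the pattern. The number of segments in Ad-Cre transplant 2 rose from 3 to 13 with it. The share at 0.25 or more then became 86.1% in the nulliparous tumour, 9.36% in MMTV-Cre transplant 4 and 0.697% in the parous tumour, and was 99.97% in the library labelled MMTV-Cre transplant 2.

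**Figure D2:**
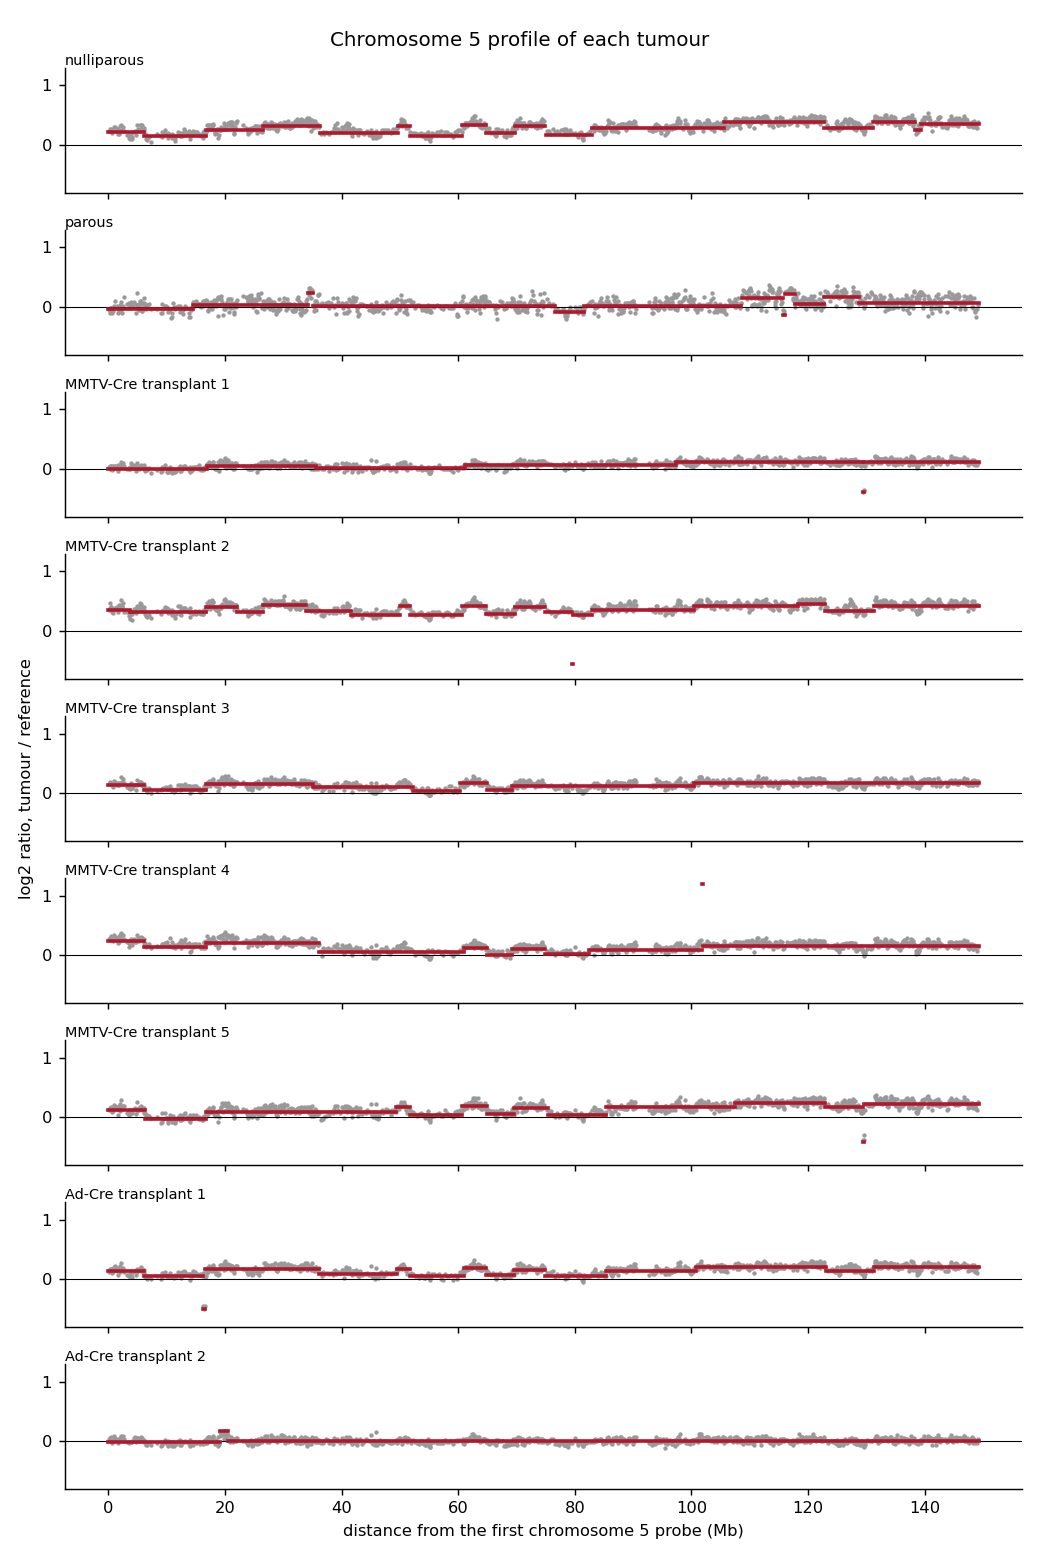
Log2 ratio of tumour to reference along chromosome 5 in each of 9 tumours (grey points, medians of neighbouring probes), against distance from the first chromosome 5 probe in Mb, with segment means as red lines. The nulliparous tumour and the library labelled MMTV-Cre transplant 2 have the highest chromosome levels, and the parous tumour has a low level with raised stretches. The axis leaves out 1 segment of the library labelled MMTV-Cre transplant 2, at -2.68.

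Steps of at least 0.2 between neighbouring segments, counted as breakpoints, numbered 6 for the library labelled MMTV-Cre transplant 2 and 4 in the parous tumour. There were 2 in each of Ad-Cre transplant 1 and MMTV-Cre transplants 1, 4 and 5. None was found in the nulliparous tumour, Ad-Cre transplant 2 or MMTV-Cre transplant 3. Over all tumours the mean was 2.0 ± 2.0 (SD, n = 9), and 1.5 ± 1.4 (SD, n = 8) without the library labelled MMTV-Cre transplant 2. Steps of that library, of MMTV-Cre transplants 1, 4 and 5 and of Ad-Cre transplant 1 were the edges of short stretches, described below. Only in the parous tumour did 2 steps bound a raised stretch near 1 Mb, of 0.99 Mb from 37421265 to 38415083. Its other 2 steps bounded a low segment of 211 kb from 118997740 to 119208563. The second of those also opened the raised segment from 119209585 to 120931401, whose fall of 0.16 at its end was not counted. After removal of the common pattern the parous tumour had 14 steps, against 0 to 6 in the other 8.

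The parous tumour had a low whole-chromosome level with stretches raised above it, and 0% of the chromosome lay in segments at 0.25 or more. Stretches at least 0.1 from the tumour's own chromosome level, after removal of the common pattern, numbered 12 in it and covered 22.3 Mb. Of these 11 were above its level and 1 below. The 11 raised stretches were 0.60 to 4.24 Mb long, covered 13.3% of the chromosome's span, and had medians of 0.13 to 0.30 without that removal, against a chromosome level of 0.06. In all 12 the parous tumour lay outside the range of the other 8 tumours, each relative to its own level. The margin was smallest in the longest of them, from 25309370 to 29552425. There the parous tumour was 0.074 above its level and the highest of the others 0.071 above its own. The stretches were chosen for that deviation in the parous tumour, so this is a description with no test. The threshold fell between a parous stretch from 25308321 at 0.1001 from its level, which was kept, and a stretch of Ad-Cre transplant 2 from 46059641 at 0.0999, which was not. Without removal of the common pattern, the block from 40 to 50 Mb of Ad-Cre transplant 2 was at -0.0003.

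The stretch from 119227641 to 120931401 on chromosome 5, 1.70 Mb with 454 probes, shows the pattern. Its median log2 ratio was 0.25 in the parous tumour, which is 0.20 above that tumour's chromosome level. It was 0.40 in the nulliparous tumour, 0.13, 0.18, 0.19 and 0.26 in MMTV-Cre transplants 1, 3, 4 and 5, 0.38 for the library labelled MMTV-Cre transplant 2, and 0.21 and -0.01 in Ad-Cre transplants 1 and 2. In absolute terms the parous tumour was therefore in the middle of the 9. Relative to its own chromosome level it was highest, since the other 8 lay between -0.02 and 0.11 of theirs. With the common pattern removed, the segment before the stretch was at -0.03 in the parous tumour, the stretch at 0.21, and the segment after it at 0.01. The step into the stretch was thus 0.24 and the step out of it was a fall of 0.20. The reference signal in the stretch was 1.07 times the autosomal median, so these probes were as bright in the pool as others.

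Another 7 raised stretches of the parous tumour lay in the distal part of the chromosome. They ran from 111852388 to 112568067, from 112877678 to 113477277, from 116486851 to 117532651, from 117840761 to 118510702, from 126011310 to 129977672, from 130825419 to 134539964 and from 141336476 to 142780044. Their medians in the parous tumour were 0.27, 0.27, 0.30, 0.25, 0.21, 0.16 and 0.20 in that order. Between them the profile returned to segment means of -0.03 to 0.04 with the common pattern removed, so the distal part alternated between a raised level and a level near 0. The other 3 raised stretches were from 25309370 to 29552425, from 37395409 to 38420130 and from 75606000 to 76304837, with medians of 0.13, 0.25 and 0.19. The stretch below the tumour's level, from 103845407 to 106340194, had a median of 0.01.

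**Figure D3:**
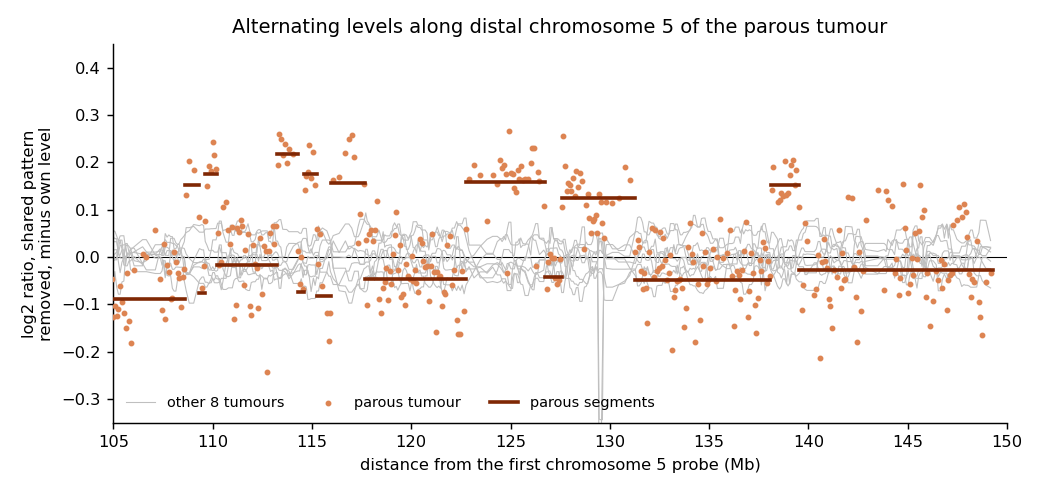
Log2 ratio with the common pattern removed, minus each tumour's own chromosome 5 level, against distance from the first chromosome 5 probe in Mb, for the parous tumour (orange points, brown segment means) and the other 8 tumours (grey lines, running median of 3 points). In the distal part drawn, the parous segments alternate between 0.13 to 0.22 above its level and values below 0, and the grey lines of MMTV-Cre transplants 1 and 5 leave the axis at 1 short drop.

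In MMTV-Cre transplant 4 the segmentation placed a boundary far from either end, and the chromosome was split there for all tumours. The place was chosen for the step in this tumour, so the comparison is a description. Its median log2 ratio was 0.22 over the 14448 probes from the start of the chromosome to position 39494968, and 0.13 over the 43097 probes from 39505036 to the end. The difference was 0.089, while the same difference was negative in 7 of the other 8 tumours and lay between -0.091 and 0.0007 in all 8. With the common pattern removed its segments fell from 0.27 to 0.24, 0.19 and 0.11 along the chromosome. No single one of these steps reached 0.2. The first segment, from 3247009 to 17211454, 13.96 Mb with 4316 probes, was 0.109 above the tumour's level. It thus met the limit of 0.1 used for the parous stretches and was the longest such stretch of any tumour. Without removal of the common pattern its median was 0.066 above that level, against -0.11 to -0.01 in the other 8 tumours.

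With the common pattern removed, short stretches below the chromosome level were found in 5 libraries, and the longest was in Ad-Cre transplant 1. From 19505968 to 19808389, over 302 kb and 174 probes, its median was -0.49, which is -0.65 from its chromosome level. The other 8 tumours were between -0.003 and 0.33 there, and the lowest of them relative to its own level was at -0.15. The reference signal of the stretch was 1.07 times the autosomal median.

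MMTV-Cre transplants 1 and 5 each had a stretch near the same place. In MMTV-Cre transplant 1 it ran from 132686986 to 132912019 with 138 probes and a median of -0.38. In MMTV-Cre transplant 5 it ran from 132678471 to 132877898 with 125 probes and a median of -0.40. The shared part was 191 kb with 120 probes, which is 84.8% of the first stretch and 95.7% of the second. The left edges lay 8.51 kb apart with 5 probes between them and the right edges 34.1 kb apart with 18 probes between them, and the error of an edge was not measured. Over the stretch of MMTV-Cre transplant 1 the other 7 tumours were at 0.21 (nulliparous), 0.02 (parous), 0.09 and 0.02 (MMTV-Cre transplants 3 and 4), 0.05 and -0.09 (Ad-Cre transplants 1 and 2), and 0.27 (library labelled MMTV-Cre transplant 2). Both low tumours lay below all of these. MMTV-Cre transplants 1 and 5 also were the lowest over a stretch of 8 probes from 109667836 to 109705311, with medians of -0.22 and -0.65, where the other 7 were between 0.21 and 0.48. The arrays of MMTV-Cre transplants 1 and 5 were scanned on different days, per the file headers.

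The deepest stretches were in the library labelled MMTV-Cre transplant 2. Its median was -2.5 over 12 probes from 7030232 to 7048477, where the other 8 tumours were between -0.01 and 0.20. It was -2.34 over 5 probes from 4172628 to 4182858, where the others were between 0.03 and 0.34. The reference signal was 1.1 and 1.15 times the autosomal median in these stretches, so the low ratio came from the tumour channel. That library also had a segment of 10 probes from 7109788 to 7124393, where its median was 0.91, the other 8 tumours were between 0.12 and 0.46, and the reference signal was 0.344 times the autosomal median. Another, from 82809539 to 82868818, had a mean of -0.55 but a median of 0.05, so few of its probes were low. Over most of the segment from 7109788, the nulliparous tumour had a stretch of 9 probes from 7112460 to 7125651, with a median of 0.29. There the parous tumour was at 0.12, every transplant was above both, at 0.37 to 1.03, and the reference signal was 0.295 times the autosomal median. Over the 10 probes from 7109788, however, MMTV-Cre transplant 1 was at 0.17, below the nulliparous tumour at 0.29. Another nulliparous stretch, of 5 probes from 130964709 to 130971215, had a median of -0.56. MMTV-Cre transplants 1, 3 and 4 were below 0 there as well, at -0.02, -0.13 and -0.33, and so was Ad-Cre transplant 2, at -0.03. The reference signal of that stretch was 0.60 times the autosomal median.

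**Figure D4:**
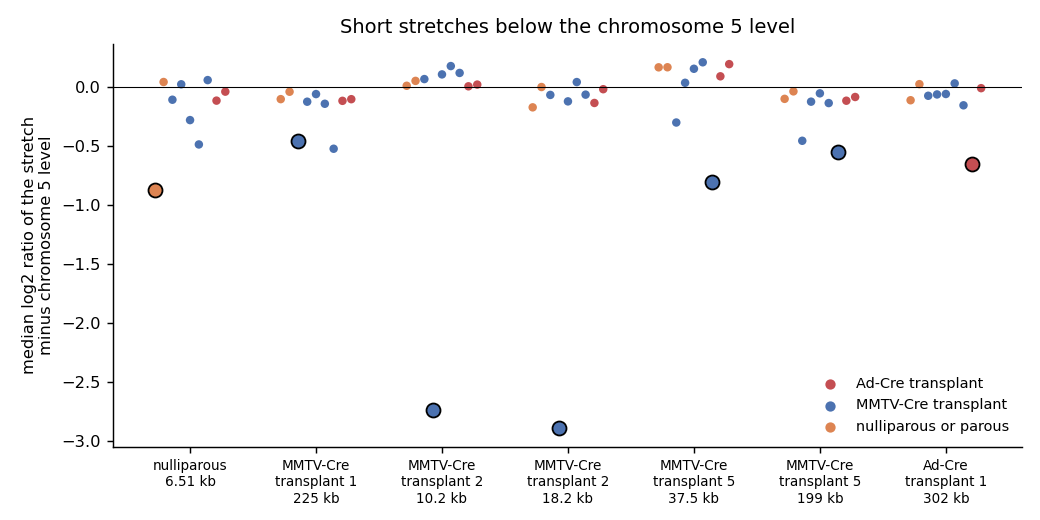
Median log2 ratio of 7 short chromosome 5 stretches minus each tumour's own chromosome 5 level, with the tumour in which the stretch was found as the large outlined point and the other 8 tumours as small points, labelled below by tumour and length in kb. The library labelled MMTV-Cre transplant 2 falls to -2.74 and -2.90, and the stretches of MMTV-Cre transplants 1 and 5 near 200 kb each show the other tumour low as well.

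The highest window of the chromosome, from 105100001 to 105200000, was high in all 7 transplants and not in the other 2 tumours. Its log2 ratio was 0.33 in the nulliparous tumour and 0.25 in the parous tumour. It was 1.33, 1.61, 1.98 and 1.74 in MMTV-Cre transplants 1, 3, 4 and 5, 1.07 for the library labelled MMTV-Cre transplant 2, and 1.34 and 1.54 in Ad-Cre transplants 1 and 2. The lowest transplant was thus well above the higher of the other tumours. The mean was 1.24 ± 0.60 (SD, n = 9), and 1.26 ± 0.64 (SD, n = 8) without the library labelled MMTV-Cre transplant 2. It was picked as the maximum. The next window by mean, from 104600001, had a mean of 0.38 ± 0.14 (SD, n = 9), and the lowest, from 110200001, had -0.20 ± 0.11 (SD, n = 9).

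The reference signal of this window was low. Of its 6 probes, 3 had a value in every array, and 4 in MMTV-Cre transplant 4. The added probe, at 105161105, had a value in that array only, a log2 ratio of 3.50. It entered that tumour's window value, the highest of all, and the means and differences that include that tumour. At the shared probes MMTV-Cre transplant 4 was at 0.29, 1.41 and 2.73. MMTV-Cre transplant 3 was at 0.28, 1.58 and 2.96 there, and MMTV-Cre transplant 5 at 0.35, 1.66 and 3.21. The median reference signal of the probes with a value was between 0.141 and 0.285 times the autosomal median, with a mean of 0.215 ± 0.054 (SD, n = 9). Over all 6 probes with no filter it was 0.0743. The tumour signal was 0.335 and 0.381 times the autosomal median in the nulliparous and parous tumours and 0.474 to 1.06 times in the 7 transplants. So the transplants were near or below a usual signal, and the pool was far below it. Over the whole chromosome, the 900 probes with a reference under 0.25 of the autosomal median, 1.56% of them, had a median of 0.12, against 0.17 for all. Several probes of the window were dimmer than that limit by far, so the 2 sets are not alike.

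The high values came from a run of dim probes in and beside the window. At 105153470 the log2 ratio was 0.14 and 0.09 in the nulliparous and parous tumours and 1.81 to 3.21 in the transplants. At 105202209, just beyond the window, it was 0.01 and 0.54 against 2.21 to 3.74. At 104993639 it was -1.07 and -1.39 against 1.0 to 2.36. The reference signals of these 3 probes were 0.132, 0.055 and 0.118 times the autosomal median. At 105148640, with a reference signal of 0.218 times, the log2 ratio was 0.57 and 0.41 against 0.88 to 1.66. All 4 probes separated the transplants from the other tumours with no overlap. From 104993639 to 105202268 there were 11 probes, and 7 of them had such dim references, of 0.0049 to 0.218 times the autosomal median. From 105142362 to 105202268 the 6 dim probes followed each other with no bright one between them, and the mean tumour signal of the transplants was above that of the other tumours at each. The 4 bright ones among them, at 0.672 to 1.77 times, had log2 ratios of -0.44 to 0.52 and did not set the transplants apart.

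**Figure D5:**
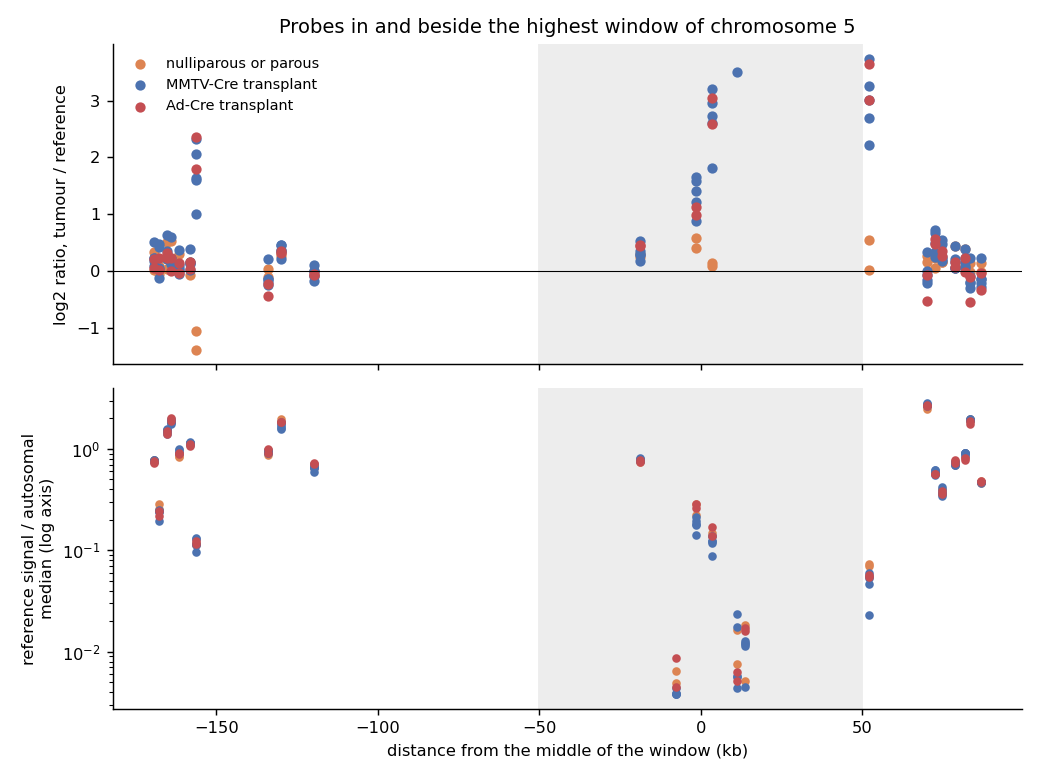
Log2 ratio of tumour to reference (top) and reference signal as a multiple of the autosomal median on a log axis (bottom) for each probe in and beside the highest chromosome 5 window (grey band), against distance from its middle in kb. Each point is 1 probe in 1 tumour, and all points above 1 are from transplants and from probes whose mean reference signal is at most 0.218 times the autosomal median.

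The stretch most often called gained by segments was the same place, 105000001 to 105200000, in 3 tumours, namely MMTV-Cre transplant 4, the nulliparous tumour and the library labelled MMTV-Cre transplant 2. It was followed by 912 windows gained in 2 tumours, 524 in 1 and 2 windows in none. Its median over 9 probes was 0.32 ± 0.10 (SD, n = 9), from 0.17 in the parous tumour to 0.49 in the library labelled MMTV-Cre transplant 2. In MMTV-Cre transplant 4 its edges, from 104993639 to 105220234, made the 2 breakpoints of that tumour. In the nulliparous tumour the stretch was at 0.21, below its flanks at 0.32, and it was counted there as part of a longer gained segment.

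Differences between groups were tested on the chromosome level and on windows, which the choice of the chromosome did not use. The 2 Ad-Cre tumours had a mean level of 0.087 ± 0.11 (SD, n = 2) and the 7 MMTV-Cre tumours 0.19 ± 0.12 (SD, n = 7). The difference of -0.10 gave p = 0.333 by an exact two-sided permutation test over 36 groupings, whose smallest possible p is 0.0278. Both Ad-Cre levels, 0.01 and 0.16, lay within or just below the range of the MMTV-Cre tumours, 0.06 to 0.40. When the library labelled MMTV-Cre transplant 2 was left out, the difference was -0.065 (exact permutation p = 0.464). Within the scan day that held both kinds of tumour, 2 against 2, it was -0.098 (exact permutation p = 0.667), where the smallest p the design allows is 0.333. The MMTV-Cre tumours of that day were the nulliparous and parous tumours, so Cre delivery and transplantation cannot be told apart within it. Over all days the MMTV-Cre side also mixed these 2 tumours with transplants, while both Ad-Cre tumours were transplants.

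The 5 MMTV-Cre transplants had a mean level of 0.19 ± 0.12 (SD, n = 5) and the nulliparous and parous tumours 0.18 ± 0.18 (SD, n = 2). The difference was 0.0024 with an exact two-sided permutation p = 1 over 21 groupings, whose smallest possible p is 0.0476. The nulliparous and parous tumours differed from each other by more than that, at 0.31 and 0.06, and enclosed 4 of the 5 transplants. The difference was -0.050 without the library labelled MMTV-Cre transplant 2. All 5 MMTV-Cre transplants were scanned on other days than the nulliparous and parous tumours, so scan day and transplantation cannot be told apart in this comparison.

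No chromosome 5 window passed an adjusted p of 0.05 for Ad-Cre against MMTV-Cre (limma, 0% of all windows called), and 4 of 1440 had an unadjusted limma p under 0.05, or 0.278%, against 2.38% of all windows. For MMTV-Cre transplants against the other MMTV-Cre tumours no chromosome 5 window passed either, against 0.00428% of all windows, and 9 had an unadjusted limma p under 0.05, or 0.625%, against 5.15%. All 7 transplants lay above the nulliparous and parous tumours without overlap in 8 chromosome 5 windows, or 0.556%, against 4.88% of all windows, and the 5 MMTV-Cre transplants did so in 8 as well, against 6.59%. That share is below the background, and the whole-chromosome level of the nulliparous tumour, 0.31, exceeded that of 6 of the 7 transplants. The highest window was 1 of the 8. It was picked as the maximum of these same arrays, so its values by group are a description and the p beside them no independent test. It had a difference of 1.26 ± 0.20 (SE) for the MMTV-Cre transplants and a limma adjusted p = 0.572. The size of this difference depended on the processing. It was 0.45 ± 0.15 (SE) with normexp background correction and 2.55 ± 0.22 (SE) with no filter on dim spots. When the library labelled MMTV-Cre transplant 2 was left out, the difference was 1.37 ± 0.16 (SE) and the limma adjusted p = 0.0073, and over all settings the adjusted p ran from 0.0019 to 0.938. The 2 Ad-Cre transplants were scanned on the same day as the nulliparous and parous tumours, and within that day the window was at 1.34 and 1.54 against 0.33 and 0.25. At 105153470 the reference was 0.148 (nulliparous) and 0.139 (parous) times the autosomal median, against 0.089 to 0.17 times in the transplants. The mean tumour signal there was 0.156 times in these 2 tumours and 0.874 times in the transplants. At 105202209 the reference was 0.07 and 0.074 times, against 0.023 to 0.06 times, so lower in every transplant. The mean tumour signal there was 0.089 times, against 0.428 times in the transplants. The part of the dim reference in the group difference was not tested.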

How the data were processed

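Each array held tumour DNA (Cy5) and pooled tail DNA (Cy3) of 1 of 9 tumours. Agilent Feature Extraction 10.5.1.1 was used by the authors, per the file headers. Processed signals as deposited hold the intensity of each spot per channel after background subtraction and dye normalisation, median signals as deposited hold raw intensity, and the authors' log10 ratios of red over green also form the deposited series table. A genome build is not given in the sources used here.

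Log2 ratios of the processed signals were computed. Control spots, outlier and non-uniform spots and spots whose reference was not well above background were left out (1597 to 2115 dropped per array). Spots of a probe were averaged and arrays centred on the autosomal median. Probes in bins of 5 were segmented by penalised least squares (penalty factor 10, at least 2 bins). Windows of 100 kb were fitted over all autosomes with limma (version 3.58.1, R 4.3.3) and adjusted by Benjamini-Hochberg, and chromosome levels with exact permutation tests. Scripts ran in Python 3.11.15 with numpy 2.4.6 and were tested on simulated data. The members, the gene list and the tests were chosen with earlier results of these data known. Some genes of the list are not reported here. Windows named are the highest, the lowest and the most recurrently gained stretch, with each tumour's breakpoints. The labels call the tumours independent, and p-values measure only the spread between these samples. The number of arrays limits the precision. Alternatives were normexp (offset 50), loess, mode centring, the series table, other filters, windows and segmentation, scan day as a block and each tumour left out. Removal of the common pattern was added after seeing the data.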

Additional observations from a re-analysis of the deposited data

Results flagged for a closer look

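In comparison with the other 4 MMTV-Cre transplants, the library labelled MMTV-Cre transplant 2 lay far off in 4 of 29 groups of values compared in this way. About 1 in 20 such groups would do so by chance, but these 4 cannot be set against that rate, since the level and the share gained overlap and both stretches were chosen in this library. Its chromosome 5 level of 0.40 was the highest, with the others between 0.08 and 0.16. Its share of the chromosome in gained segments was 99.95%, with the others at 0% to 0.152%. Relative to its chromosome level it was at -2.74 in the stretch from 4172628 and at -2.90 in the stretch from 7030232. This is the library whose run on chromosome 11 kept 96.7% of its flank signal.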

How the results depend on the processing

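The chromosome level kept its sign in its mean under every alternative, from 0.13 with mode centring to 0.26 with normexp, and 0.14 to 0.18 with each tumour left out. No paired analysis was possible because replicate numbers were given by accession order and link no tumours. The difference of MMTV-Cre transplants from the other MMTV-Cre tumours was -0.0028 with normexp and ran from -0.13 without the parous tumour to 0.13 without the nulliparous tumour, and at -0.050 when the library labelled MMTV-Cre transplant 2 was left out. The difference of Ad-Cre from MMTV-Cre ran from -0.18 to -0.023 with each tumour left out, and the chromosome 11 check from -1.40 to -1.19. Windows differing from the reference numbered 943, and 565 with mode centring and 736 to 999 with each tumour left out. Transplant windows called on chromosome 5 were 0, and 1 without a filter on dim spots and, of the tumours left out, 0 to 1, the 1 being the fit that leaves out the library labelled MMTV-Cre transplant 2, and both times it was the window at 105100001. The share gained ran from 8.05% to 20.5% with each tumour left out, was 41.0% at a gain threshold of 0.15, 4.79% at 0.4 and 40.1% with normexp. Breakpoints averaged 6.44 without a filter and 1.5 to 2.25 with each tumour left out, against 2.0. The level of the most recurrently gained stretch was 0.20 with loess and 0.20 with both channels filtered, where another stretch from 22300001 took its place. It was 1.01 without a filter, also at the same stretch, and 0.30 to 0.34 with each tumour left out. With normexp the most recurrent stretch was 111800001 to 120900000, in 6 tumours, at 0.37. The highest window averaged 0.55 with normexp, at another window from 139100001, 2.28 without a filter and 1.15 to 1.37 with each tumour left out. Its reference signal was 0.0743 without a filter and 0.206 to 0.224 with each tumour left out. The causes of these changes were not tested. The filter on dim spots left 3 of 6 probes in the highest window, and 4 in MMTV-Cre transplant 4, which limits its precision.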
